A study of Mus musculus with 4 samples.

Results

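The sites described here were single adenosines read in part as guanosine, the mark that A-to-I RNA editing leaves in sequence data, that lay outside repeats and that the deposited table placed past the borders of their assigned genes. Most of them lie inside some gene of the larger GENCODE annotation, as given below. They were chosen by 2 labels and by the measured reads of the deposited site table. A site had to carry no repeat class. It had to lie downstream (within 1 kb past a gene's end) or in a 5′ or 3′ distal region (beyond that, up to 50 kb from the gene). In at least 1 of the 4 libraries it needed 5 or more reads, 3 or more altered reads and an editing rate, the altered reads over all reads at the site, of 0.05 to 0.95. This left 2529 of the 24200 sites that met the read limits anywhere. Of these, 235 were downstream and 2294 were distal, the latter split into 1176 5′ distal and 1118 3′ distal sites.

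The study asked what ADAR1, the main editing enzyme of endothelial cells (ECs), does in those cells. Lung ECs came from 2 male C57/BL6 mice, labelled 2 wk old, of an inducible ADAR1 knockout model that the labels call EC-specific. From each mouse 1 culture was treated with 4-hydroxytamoxifen, which triggers Cre to remove floxed exons 12 to 15 of Adar (TM), and 1 culture was left untreated (CON), so that both groups carried the floxed alleles and Cre. The cells were selected on the endothelial surface protein CD31 and, after a first culture, on ICAM-2. The CON and TM libraries of mouse 1 are named EC1 CON and EC1 TM and those of mouse 2 EC2 CON and EC2 TM, each mouse being a pair. Values of 4 libraries without further words are given in this order. The promoter that drives the inducible Cre was not given in the sources used here. With n = 2 per group, no exact permutation over mice can give a p below 0.5.

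The gene count tables summed to between 131796753 and 207323870 reads a library, reads on no gene included, and EC2 TM was the deepest. All 12 endothelial markers were counted in both CON libraries and 11 in both TM libraries, where Vwf was at 0. Their summed counts ran from 1617 to 2845. The leukocyte list summed to between 39 and 70, the fibroblast and smooth muscle list to between 64 and 84, and the epithelial list to at most 6. Listed sites in exons 12 to 14 of Adar had a median depth of 145 reads in EC1 CON (3 sites) and 169 reads in EC2 CON (1 site). No site was listed there in EC1 TM, and the 2 listed in EC2 TM had a median depth of 65.5 reads. In exons 1 to 11 the median depth of listed sites was 668 and 1001.5 reads in the TM libraries against 152.5 and 176 reads in the CON libraries.

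Adenosine deaminases acting on RNA convert adenosine to inosine within double-stranded RNA, and reverse transcription reads inosine as guanosine. In mouse tissues most such sites lie in inverted SINE repeats of introns and 3′ UTRs, where paired copies fold back on each other. Transcripts can run past annotated gene ends, and unannotated transcripts start between genes, so RNA from beyond gene borders can be edited too. An A-to-G difference can also come from a DNA variant or from reads of a similar gene copy, and the table does not tell these apart.

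The reference transcripts and gene starts held the sequence around 767 of the 2529 sites. At all 767 the base on the assigned strand was A. For some of the sites described below, 29 bases are shown with the altered base in capitals. They run 5′ to 3′ on the strand of the assigned gene and are from GENCODE vM21 (GRCm38). The first 3 are sites with lower rates in TM in both mice, and the reads behind each are given with the site tests. The Coro1c site was called by a read test and the Endov site had the most reads of its gene, and both were chosen after their values were seen.
Mir3061 3′ distal, chr11:52168011-52168039 (+): ctgtggaggagtccAaggcagagccacag
Slfn10-ps downstream, chr11:83027822-83027850 (-): accggtgactggaaAggtctcagaattac
Ccnk downstream, chr12:108203860-108203888 (+): ggcagaaaccaggcActccagcccctccc
Coro1c 5′ distal, chr5:113940039-113940067 (-): ccaggtcccttggcAcagcctgggattcg
Endov 5′ distal, chr11:119449263-119449291 (+): agacaagccagtcaAaggaattggcagag

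Downstream sites passed more often in mouse 2, as the plot of sites per 1000000 reads shows. They passed 72 times in CON and 75 times in TM of mouse 1, and 134 times in CON and 131 times in TM of mouse 2. This was 0.541, 0.569, 0.934 and 0.632 per 1000000 reads of the library, so EC2 CON stood above the other 3 libraries. Distal sites passed 974, 1047, 902 and 1349 times in the same order, or 7.32, 7.94, 6.28 and 6.51 per 1000000 reads. For distal sites both libraries of mouse 1 were above both of mouse 2, and TM was the higher library in each mouse. Taken alone, 5′ distal sites were at 3.45 in EC2 CON and 3.41 in EC2 TM, where TM was the lower. The 2 classes together made up 8.73% of all passing sites in CON and 11.8% in TM of mouse 1, and 9.74% in CON and 12.1% in TM of mouse 2, a larger share in TM than in CON of either mouse. Per 1000000 reads they were at 7.86, 8.51, 7.22 and 7.14, higher in TM in mouse 1 and slightly lower in TM in mouse 2.

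**Figure D1:**
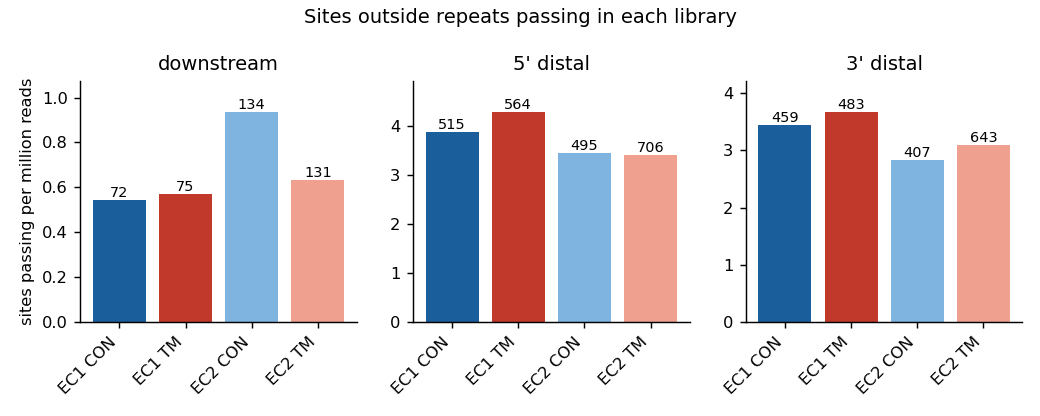
Sites outside repeats that passed the read limits in each library, per 1000000 reads of the library (vertical axes, a scale for each panel), for downstream, 5′ distal and 3′ distal sites; the number above each bar is the count of sites. EC2 CON has 134 downstream sites, the highest bar of that panel, whereas the 5′ and 3′ distal bars are highest in EC1 TM.

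Most sites rested on few reads and on 1 library. The median depth of a passing site was 15 reads in CON and 18 in TM of mouse 1, and 14 in CON and 18 in TM of mouse 2. Of the 2529 sites, 1322 passed in a single library (52.3%, against 52.4% of all passing sites) and 352 in all 4 (13.9%, against 12.6%). A library may list a site below the limits, and 1193 sites (47.2%) were listed in all 4 libraries, against 43.9% of all passing sites. Among downstream sites 49 of 235 (20.9%, Wilson 95% interval 16.1% to 26.5%) were listed in both libraries of mouse 2 and in neither of mouse 1, against 209 of 2294 distal sites (9.11%, 8.0% to 10.4%). These intervals, here and elsewhere, cover counting error alone, and sites of one gene are not independent. The rule used the rates, so they are given as a description. Their medians over passing sites were 0.456, 0.458, 0.50 and 0.475. A rate of 0.40 to 0.60 in every library with 5 or more reads was found at 51 downstream (21.7%) and 302 distal sites (13.2%). A rate of at most 0.20 throughout was found at 32 downstream (13.6%) and 525 distal sites (22.9%). Of all passing sites 13.7% had such an intermediate and 21.3% such a low rate, so that these 2 distal shares were near those of all sites. A mean rate above 0.80 over those libraries was found at 31 downstream (13.2%) and 330 distal sites (14.4%), against 7.03% of all passing sites.

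Just inside the depth limit lay 61 to 82 sites a library with exactly 5 reads, and just outside it 50 to 66 sites with 4 reads. The limit on altered reads was the sharper one, with 232 to 276 sites a library at 3 altered reads and 644 to 925 sites at 2. At the lower rate limit 21 to 29 sites a library had a rate of 0.05 to 0.06 and 17 to 42 a rate of 0.04 up to 0.05. At the upper limit 3 to 13 sites lay at 0.94 to 0.95 and 6 to 14 just above it. A further 2112 to 2760 sites a library were altered in all their reads (rate 1) and so did not pass in that library. A site of this kind is in the set where another library passes it.

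The 2529 sites were assigned to 944 genes, of which 592 had a single site. GENCODE vM21 placed 1026 of them (40.6%) inside a gene on the same strand and 713 (28.2%) inside a gene on the opposite strand alone. The remaining 790 (31.2%) lay outside every GENCODE gene. For downstream sites the last share was 56.6% (133 of 235) and for distal sites 28.6% (657 of 2294). The gene named in the table was itself the same-strand GENCODE gene at 58 downstream and 162 distal sites, where the larger annotation extends that gene over the site. A name below is therefore the gene as assigned, which need not be the nearest one, and not a statement of which transcript held the site. Downstream sites lay a median of 461 bases past the gene end (quartiles 243.5 and 704). The median distance was 18577 bases for 3′ distal and 24780.5 bases for 5′ distal sites.

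The sites were gathered in a few places. Erdr1 on chromosome Y, erythroid differentiation regulator 1, had 188 sites, and G530011O06Rik on chromosome X had 100. The predicted genes Gm21671 (58 sites), Gm10471 (30 sites) and Gm1979 (28 sites) were all on chromosome 5. AI607873, a gene of the interferon-inducible HIN-200 family on chromosome 1, had 28 sites. These 6 genes, the last 2 of them tied, held 17.1% of the sites. Reads from near-identical gene copies could have been placed on one another here, so the rates near these genes are uncertain. By windows of 10 Mb, 189 sites lay on chromosome 1 from 170 to 180 Mb and 150 on chromosome 12 from 110 to 120 Mb. Within 10 Mb of Adar on chromosome 3 lay 32 sites, of 92 on that chromosome.

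The main comparison was CON against TM within each mouse. At sites with 5 or more reads in both libraries of a mouse, the mean rate of distal sites was 0.457 in CON and 0.463 in TM of mouse 1, and 0.480 and 0.473 in mouse 2. The CON minus TM difference of the mean rate was -0.00599 in mouse 1 (1012 sites) and 0.00731 in mouse 2 (1126 sites), so that the sign differed between the mice. Its mean was 0.00066 ± 0.00941 (SD, n = 2 mice, two-sided exact sign permutation p = 1). The mean rate of downstream sites was 0.499 in CON and 0.511 in TM of mouse 1, and 0.507 and 0.453 in mouse 2. They had a difference of -0.0123 in mouse 1 (76 sites) and 0.0532 in mouse 2 (121 sites), a mean of 0.0204 ± 0.0463 (SD, n = 2, exact sign permutation p = 1). With a depth minimum of 10 reads the downstream values were 0.0148 and -0.00912, with the signs of the mice exchanged. Weighted by the reads of each site they were 0.0533 and 0.0276 for downstream and -0.0266 and -0.0168 for distal sites, positive for downstream and negative for distal sites in both mice. The downstream minus distal difference was -0.00635 in mouse 1 and 0.0459 in mouse 2 (mean 0.0198 ± 0.0369, SD, n = 2, exact permutation p = 1), less than the spread between the mice. For 5′ and 3′ distal sites alone the means over the mice were 0.00082 ± 0.00785 and 0.00045 ± 0.0113 (SD, n = 2), each with signs that differed between the mice.

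Sites in repeats and in 3′ UTRs showed what a lowered rate looked like in the same libraries. Downstream sites in SINEs had a CON minus TM difference of 0.0931 in mouse 1 and 0.126 in mouse 2, and distal sites in SINEs had 0.0536 and 0.0726. Distal sites outside repeats minus those in SINEs gave -0.0596 and -0.0652 in the 2 mice (mean -0.0624 ± 0.00397, SD, n = 2, exact sign permutation p = 0.5, the smallest that 2 mice allow). For downstream sites this value was -0.105 and -0.0725 (mean -0.0889 ± 0.0233, SD, n = 2, exact p = 0.5). The nearest set to the distal sites was that of intronic sites outside repeats, from which they differed by -0.00367 and -0.00289 (mean -0.00328 ± 0.00056, SD, n = 2, exact p = 0.5). The 3′ UTR sites outside repeats had differences of 0.0176 and 0.0317, whereas downstream sites, which lie just past the 3′ UTR, were below them in mouse 1 and above them in mouse 2.

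**Figure D2:**
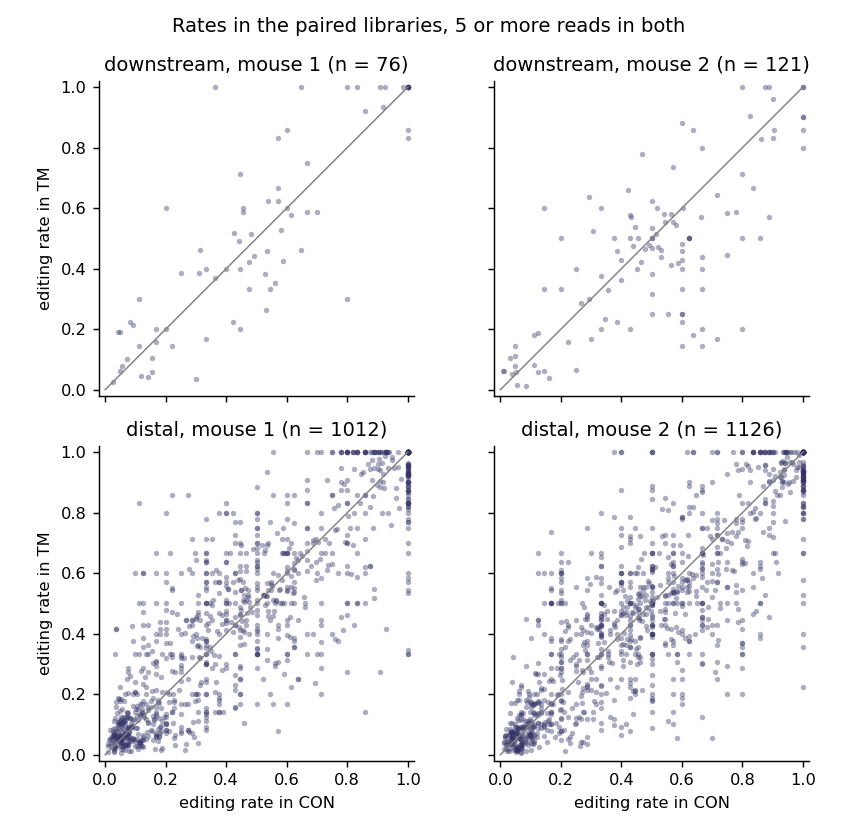
Editing rate in TM (vertical axis) against CON (horizontal axis) for each downstream (top) and distal (bottom) site with 5 or more reads in both libraries of mouse 1 (left) or mouse 2 (right); each point is a site and the line marks equal rates. The points spread to both sides of the line in all 4 panels, and the distal mean differences are -0.00599 and 0.00731.

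A site was called CON > TM when its rate in CON met the read limits and was at least 0.05 above TM, a library that did not list the site being given a rate of 0 as in the deposited table, and CON < TM in the reverse case. Distal sites were CON > TM 458 times in mouse 1 (20%, against 28.7% of all 24200 passing sites) and 418 times in mouse 2 (18.2%, against 25.6%). They were CON < TM 542 times in mouse 1 (23.6%, against 18.8% of all) and 627 times in mouse 2 (27.3%, against 22.9%). In both mice alike, 87 distal sites were CON > TM (3.79%, against 7.35% of all) and 134 were CON < TM (5.84%, against 3.92% of all). The distal sites were thus below the background for the one direction and above it for the other. Intronic sites outside repeats lay on the same sides of it, at 4.36% CON > TM and 5.10% CON < TM in both mice. At distal sites the depth per 1000000 reads was also higher in TM, by a median of 1.18-fold in mouse 1 and 1.09-fold in mouse 2, and its part in these counts was not tested. When both libraries of each mouse had to list the site at 5 or more reads, 59 distal sites were CON > TM and 68 CON < TM in both mice.

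Downstream sites had more CON > TM than CON < TM calls in mouse 2 and fewer in mouse 1. They were CON > TM 34 times in mouse 1 (14.5%) and 76 times in mouse 2 (32.3%), and CON < TM 39 times (16.6%) and 57 times (24.3%). In both mice 12 were CON > TM (5.11%, against 7.35% of all) and 6 were CON < TM (2.55%, against 3.92% of all), both shares being below the background. These were 6 and 6 at a depth minimum of 10 reads and 4 and 2 at 20 reads. Of the 34 downstream sites that were CON > TM in mouse 1, 12 were CON > TM in mouse 2 (35.3%, 21.5% to 52.1%) and 3 were CON < TM (8.82%, 3.05% to 23.0%). In the reverse order, of the 76 that were CON > TM in mouse 2, 12 were CON > TM in mouse 1 (15.8%, 9.27% to 25.6%) and 8 were CON < TM (10.5%, 5.43% to 19.4%). Of the 458 such distal sites, 87 were CON > TM in mouse 2 (19%, 15.7% to 22.8%) and 85 were CON < TM (18.6%, 15.3% to 22.4%). Of all passing sites CON > TM in mouse 1, 25.6% were CON > TM and 12.7% CON < TM in mouse 2. Of all passing sites CON > TM in mouse 2, 28.7% were CON > TM and 11.2% CON < TM in mouse 1. The downstream share of repeated calls was thus above that of all sites in the first order and below it in the reverse order. A CON < TM call at a distal site of mouse 1 was followed by CON < TM in mouse 2 at 134 of 542 sites (24.7%, 21.3% to 28.5%) and by CON > TM at 77 (14.2%, 11.5% to 17.4%), against 20.8% and 15.3% over all passing sites.

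**Figure D3:**
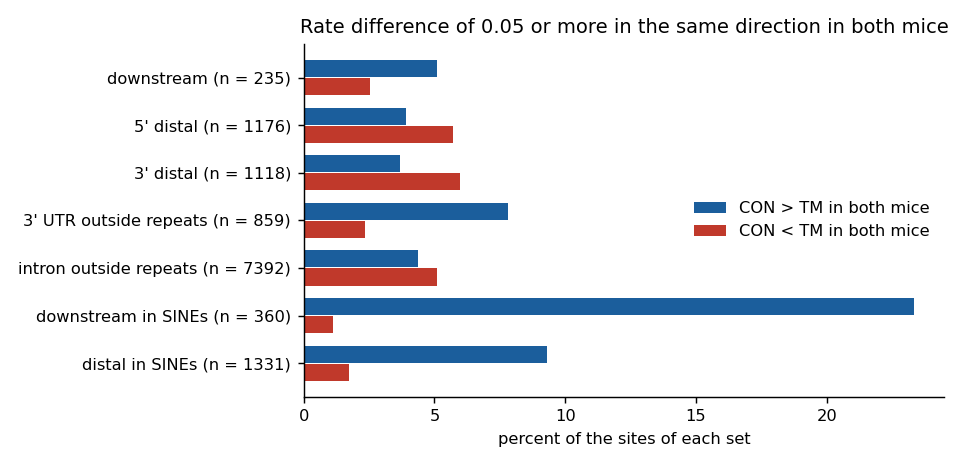
Percent of the sites of each set with a rate difference of 0.05 or more in the same direction in both mice, CON > TM in blue and CON < TM in red (horizontal axis); n is the number of sites. Distal and intronic sites outside repeats have the longer red bar. Downstream (5.11% against 2.55%) and 3′ UTR sites outside repeats and the SINE sets have the longer blue bar.

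Where all 4 libraries had 5 or more reads, the groups could be compared for overlap. Both CON rates lay above both TM rates at 120 of 730 distal sites (16.4%) and 10 of 52 downstream sites (19.2%), against 26.9% of all passing sites of that depth. Both TM rates lay above both CON rates at 130 distal (17.8%) and 7 downstream sites (13.5%), against 11.2% of all. In SINEs the CON libraries were above at 143 of 351 distal sites (40.7%) and 88 of 133 downstream sites (66.2%). Over the 730 distal sites the rates of EC1 CON and EC1 TM had a Pearson r of 0.873 and those of EC2 CON and EC2 TM one of 0.869. Between the mice it was 0.812 for the CON and 0.867 for the TM libraries. These are descriptions across sites that share libraries and genes.

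Many distal sites passed in TM alone. In neither CON library but in at least 1 TM library, 861 distal sites passed (37.5%), against 28.8% of all passing sites. In CON alone, 532 distal sites passed (23.2%), against 31.3% of all. Of downstream sites 77 passed in TM alone (32.8%) and 70 in CON alone (29.8%). In both TM libraries and in no CON library 150 distal sites passed (6.54%, against 3.62% of all), and in both CON libraries and no TM library 42 (1.83%, against 4.05% of all).

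Sites near genes of the HIN-200 family on chromosome 1, chosen after their values were seen, were among them. Ifi204, Ifi203, AI607873, Ifi202b and Pydc4, interferon-inducible genes that include sensors of nucleic acids, had 96 sites between them, from position 173589516 to 174001908. Of these, 82 passed in TM alone and 0 in CON alone. The sites were listed 43 times in EC1 CON and 39 times in EC2 CON at a median depth of 4 reads in either library. They were listed 93 times in EC1 TM and 91 times in EC2 TM, at median depths of 38 and 52 reads. The read limits that made these sites members used the same reads, so the depths are a description.

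The 26 sites assigned to Endov, the gene of an endonuclease that cuts RNA at inosine, had rates that summed to near 0.5 in every library and a higher depth in TM. They were also chosen after their values were seen, and 25 of the 26 lay inside Rnf213 on the same strand, a large ubiquitin ligase gene. Summed over the sites that a library listed (25 in EC1 TM and 26 in each other library), 513 of 953 reads were altered in EC1 CON (53.8%, 50.7% to 57.0%) and 4881 of 9363 in EC1 TM (52.1%, 51.1% to 53.1%). In mouse 2, 400 of 764 reads were altered in EC2 CON (52.4%, 48.8% to 55.9%) and 7049 of 13676 in EC2 TM (51.5%, 50.7% to 52.4%). The intervals of the 4 libraries overlapped. Single sites ranged more widely, from 28.0% to 60.6% in EC1 TM and from 30.8% to 75% in EC2 TM. The depth per 1000000 reads at sites of the set inside Rnf213, of any assigned gene, with 5 or more reads in both libraries was higher in TM by a median of 10.6-fold in mouse 1 (33 of 45 sites) and 12.9-fold in mouse 2 (30 sites). At the site printed above, 120 of 208 reads were altered in CON and 1253 of 2285 in TM of mouse 1, and 100 of 170 in CON and 1797 of 3222 in TM of mouse 2.

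Few sites assigned to the list of 50 interferon-stimulated genes were found. There were 3, all distal, named after their values were seen, and each passed in TM alone. Near Iigp1, a GTPase of antimicrobial defence, 6 of 13 reads were altered in EC1 TM and 6 of 8 in EC2 TM, and neither CON library listed the site. Near Gbp3, a guanylate-binding protein gene, 14 of 14 reads were altered in EC1 TM and 7 of 17 in EC2 TM, and the single read of EC1 CON was altered too. Near Gbp7 the site was listed in EC1 TM with 3 of 14 altered reads and in no other library.

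Fisher's exact test on the reads of each site, adjusted over all tested sites of the table, compared the 2 libraries of a mouse. In mouse 1, 1072 of the sites were tested and 0 were called in either direction, against 0.182% of all tested sites called lower and 0.0115% called higher in TM. At an unadjusted p under 0.05, 31 were lower and 18 higher in TM, or 2.89% and 1.68% of those tested, against 1.67% and 0.510% of all tested sites. In mouse 2, 1227 were tested, 3 were called lower in TM and 0 higher, against 0.511% and 0.0115% of all tested sites. At an unadjusted p under 0.05, 41 were lower and 20 higher in that mouse, or 3.34% and 1.63%, against 2.86% and 0.482% of all tested sites. No site was called in both mice. With both mice in an exact Cochran-Mantel-Haenszel test, the mouse being the replicate block, 758 were tested, 5 were called lower in TM and 1 higher, against 1.52% and 0.0848% of all tested sites. These tests take reads as independent and compare libraries, not the conditions. The 34696 sites tested in mouse 1 outnumber the 24200 passing sites, since the test had no rate limits. They include sites altered in all reads of both libraries, which cannot differ. The shares of all tested sites are thus not those of a like set, and no excess over them is read here.

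The 3 sites called in mouse 2 were all 3′ distal. The first lay 35448 bases past the end of Fa2h, the gene of a fatty acid 2-hydroxylase, at chr8:111309690 and outside GENCODE genes. Its altered reads were 5 of 17 in CON and 4 of 67 in TM of mouse 1, and 12 of 24 in CON and 8 of 92 in TM of mouse 2. Both TM rates (5.97% and 8.70%) were below both CON rates (29.4% and 50%), with an adjusted p of 0.0059 in mouse 2 by Fisher's exact test and of 0.00016 with the block. A second Fa2h site 228 bases away, at chr8:111309918, had 5 of 19, 1 of 69, 3 of 8 and 9 of 93 altered reads in the same order. It was called with the block alone (adjusted p = 0.019, exact Cochran-Mantel-Haenszel test). Depth at both sites was higher in TM than in CON.

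The second called site was assigned to Mir3061, a microRNA gene 41189 bases away, and its sequence is the first printed above. It overlapped an exon of the olfactory receptor pseudogene Olfr1372-ps1, which runs on the opposite strand, and which strand its reads came from was not tested. Altered reads were 10 of 36 in CON and 5 of 68 in TM of mouse 1, and 14 of 51 in CON and 4 of 96 in TM of mouse 2. The CON rates of 27.8% and 27.5% were almost equal in the 2 mice, and the TM rates were 7.35% and 4.17%. The adjusted p was 0.021 in mouse 2 (Fisher's exact test) and 0.00035 with the block. The third called site lay 1746 bases past Uprt, a gene named for uracil phosphoribosyltransferase, on chromosome X at position 104508008. It had 14 of 66 altered reads in EC2 CON and 1 of 92 in EC2 TM (adjusted p = 0.0060, Fisher's exact test). In mouse 1 it had 1 of 39 and 1 of 45, so that the difference was seen in mouse 2 alone.

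The block test also called a site assigned to Coro1c, the gene of an actin-binding coronin. GENCODE placed it in an exon of Ssh1, a gene of a cofilin phosphatase, on the same strand. Altered reads were 16 of 86 in CON and 1 of 63 in TM of mouse 1, and 20 of 103 in CON and 10 of 109 in TM of mouse 2 (adjusted p = 0.020, exact Cochran-Mantel-Haenszel test). Both CON rates were above both TM rates. The remaining site called lower in TM was near Hdhd2, described with the runs. The 1 site called higher in TM with the block was downstream of Rab5b, a GTPase of early endosomes. It was altered in 11 of 17 reads of EC1 CON and in all reads of the other 3 libraries (47, 32 and 72 reads), so that EC1 CON alone made the call.

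**Figure D4:**
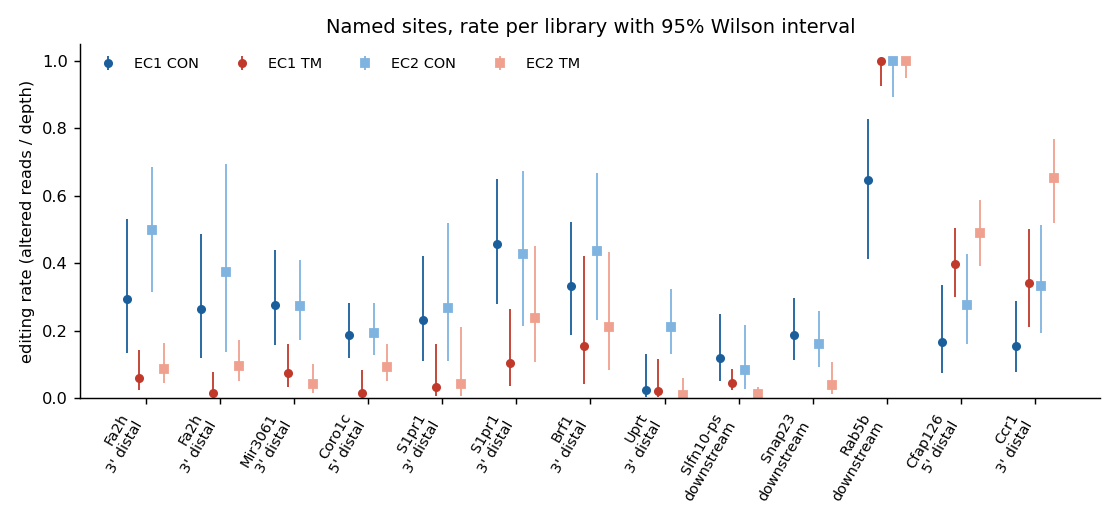
Editing rate (vertical axis, altered reads over depth) of 13 sites in CON and TM of mouse 1 (circles) and of mouse 2 (squares), with 95% Wilson intervals. At both Fa2h sites, Mir3061 and Coro1c the red TM points lie below the blue CON points in either mouse, and at Cfap126 and Ccr1 above the CON point of the same mouse; Snap23 was not listed in EC1 TM.

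Of the sites with 10 or more reads in all 4 libraries, 421 were distal and 30 downstream. Among the distal ones 115 had a lower rate in TM in both mice and 122 a higher one. The same counts over all passing sites are not given, so these counts and the downstream ones below are a description. Besides Fa2h and Mir3061, the largest falls in the mouse with the smaller difference were near S1pr1, described with the runs, and Brf1. Near Brf1, a subunit gene of the RNA polymerase III factor TFIIIB, altered reads were 9 of 27 in CON and 2 of 13 in TM of mouse 1, and 7 of 16 in CON and 4 of 19 in TM of mouse 2. The TM rates were below the CON rates in either mouse, but the adjusted p was 1 in each mouse and 1 with the block. The largest rises were at Cfap126, a ciliary gene, at Ccr1, a chemokine receptor gene, and at Adssl1. Near Cfap126 altered reads were 5 of 30, 33 of 83, 11 of 40 and 48 of 98. Near Ccr1 they were 7 of 45, 13 of 38, 10 of 30 and 34 of 52. Neither was called, with adjusted p-values of 0.074 and 0.061 in the block test. The site near Adssl1 rested on 10 to 16 reads a library.

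Among the 30 downstream sites 6 were lower in TM in both mice and 4 higher. The site downstream of Slfn10-ps, a pseudogene of the schlafen family, lay in an exon of the GENCODE gene Gm11425. It had 5 of 42 altered reads in CON and 8 of 178 in TM of mouse 1, and 3 of 36 in CON and 4 of 299 in TM of mouse 2. Its TM rates of 4.49% and 1.34% were below the CON rates of 11.9% and 8.33%, depth was higher in TM, and the adjusted p with the block was 0.25. The site downstream of Ccnk, the cyclin K gene, overlapped an exon of Ccdc85c on the opposite strand. It was altered in 64 of 110 reads of CON and 30 of 57 of TM in mouse 1, and in 75 of 113 of CON and 80 of 140 of TM in mouse 2 (adjusted p = 1, exact Cochran-Mantel-Haenszel test). The 2 sites downstream of Inf2, a formin gene, and that of Eif5, a translation initiation factor gene, also had intermediate rates, from 0.381 to 0.588 over the 4 libraries. The 3 sites with the largest rises, downstream of Vangl2, Klf7 and Ninl, were not called in either mouse or with the block. Downstream of Vangl2, a planar polarity gene, altered reads were 10 of 22, 10 of 17, 15 of 32 and 21 of 27.

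A site downstream of Snap23, a gene of membrane fusion, was not listed in EC1 TM and so fell outside these 30. It was chosen after its values were seen. Altered reads were 13 of 69 in EC1 CON, 12 of 75 in EC2 CON and 3 of 78 in EC2 TM. The 2 CON rates (18.8% and 16.0%) were alike and the single TM rate was 3.85%, with a p of 0.014 in mouse 2 by Fisher's exact test, which was 0.81 after adjustment over all tested sites.

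Near neighbours were counted within each set, so a smaller set can have fewer than all passing sites for that reason alone. Another site of the set lay within 50 bases for 53 of 235 downstream (22.6%, 17.7% to 28.3%) and 564 of 2294 distal sites (24.6%, 22.9% to 26.4%). This share was 32.2% for 3′ UTR and 19.9% for intronic sites outside repeats, and 75.8% for downstream and 45.3% for distal sites in SINEs. Over all passing sites it was 33.8%, and each share counts neighbours within its own set. Of the 99 sites that were CON > TM in both mice, 44 had such a neighbour (44.4%, 35.0% to 54.3%). Of the 140 that were CON < TM in both, 47 had one (33.6%, 26.3% to 41.7%). The share was 34.7% for the 173 sites whose direction differed between the mice and 22.0% for the remaining 2117. A passing SINE site within 1000 bases was found for 11 of the 99 (11.1%) and 11 of the 140 (7.86%), against 9.25% of all 2529.

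The longest run, with at most 100 bases between neighbours, was that of 25 sites over 1009 bases near Erdr1. Summed over the run, 173 of 988 reads were altered in CON and 393 of 2254 in TM of mouse 1, and 222 of 1184 in CON and 572 of 3707 in TM of mouse 2. These rates of 17.5%, 17.4%, 18.8% and 15.4% were almost equal in mouse 1 and lower in TM in mouse 2, while depth was higher in TM. Of the 25 sites, 6 were CON > TM and 5 CON < TM in mouse 1, and 6 and 7 in mouse 2. In both mice 4 were CON > TM and 0 CON < TM, against 7.35% and 3.92% of all passing sites. The second run held 12 sites over 106 bases on chromosome 18, which the table placed 2683 to 2788 bases past Hdhd2, a hydrolase-like gene, and GENCODE inside that gene. Its altered reads summed to 45 of 92 in CON and 60 of 162 in TM of mouse 1, and 34 of 103 in CON and 56 of 190 in TM of mouse 2. That is 48.9%, 37.0%, 33.0% and 29.5%, lower in TM in each mouse, but EC1 TM was above EC2 CON. Reads that cover several sites of a run were counted at each of them. The called Hdhd2 site belonged to a second run nearby, and was altered in 3 of 9, 1 of 12, 7 of 10 and 1 of 18 reads (adjusted p = 0.026, exact Cochran-Mantel-Haenszel test).

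The third place was shared by runs of 11 sites near S1pr1 and Kalrn. S1pr1 encodes the sphingosine-1-phosphate receptor of endothelium, and its run lay 6914 to 6981 bases past the gene end, at chr3:115703452-115703519 and outside GENCODE genes. Of these sites 10 passed in CON and 2 in TM of mouse 1, and 3 in CON and 2 in TM of mouse 2. Altered reads summed to 49 of 270 in CON (18.1%) and 14 of 186 in TM (7.53%) of mouse 1, and 21 of 95 in CON (22.1%) and 14 of 125 in TM (11.2%) of mouse 2. Both CON values were above both TM values, but 9 of the 11 sites met the read limits in CON alone and so are in the set through the group where they are high. Of the 11 sites, 8 were CON > TM in mouse 1, 3 in mouse 2 and 2 in both, and 0 were CON < TM. At position 115703514 altered reads were 11 of 24, 3 of 29, 6 of 14 and 5 of 21, and at 115703519 they were 6 of 26, 1 of 31, 4 of 15 and 1 of 23. Neither reached the threshold with the block (adjusted p = 0.17 and 0.16, exact Cochran-Mantel-Haenszel test). Over all 23 sites assigned to S1pr1, 15 passed in CON alone and 0 in TM alone, against 31.3% and 28.8% of all passing sites. The gene was named partly for its falls in TM, so this split is a description. The nearest passing SINE site was 710 bases away from the run.

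The Kalrn run, 28751 to 28811 bases before the start of this gene of a guanine nucleotide exchange factor as the table has it and inside the gene in GENCODE, went opposite ways in the 2 mice. Altered reads summed to 21 of 233 in EC1 CON (9.01%) and 48 of 292 in EC1 TM (16.4%), and to 44 of 130 in EC2 CON (33.8%) and 32 of 161 in EC2 TM (19.9%). Of its 11 sites, 7 were CON < TM in mouse 1 and 9 were CON > TM in mouse 2. The longest downstream run, named after its values were seen, held 10 sites within 28 bases, 902 to 929 bases past Optn, the gene of the autophagy receptor optineurin. Altered reads summed to 23 of 77 in CON (29.9%) and 10 of 42 in TM (23.8%) of mouse 1, and 33 of 54 in CON (61.1%) and 5 of 26 in TM (19.2%) of mouse 2. All 10 sites met the read limits in CON libraries alone, which fixes the direction, and the median depth of a site was 5 to 9 reads a library.

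**Figure D5:**
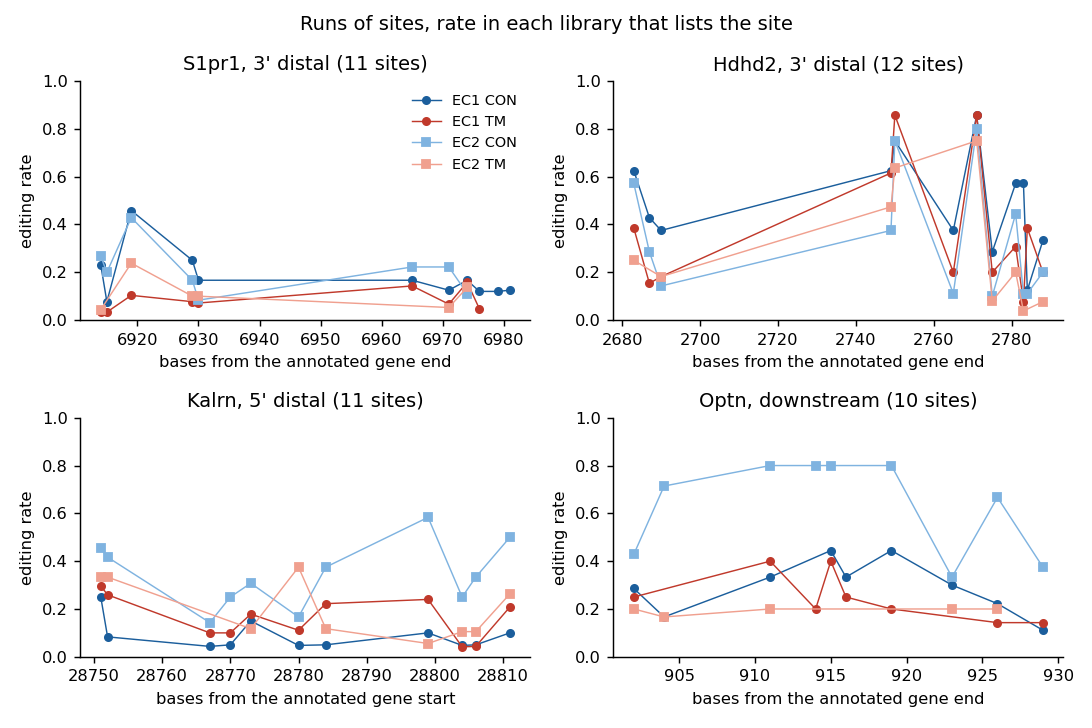
Editing rate (vertical axis) at each site of 4 runs, against the distance in bases from the annotated gene end or, for Kalrn, the gene start (horizontal axis), in each library that lists the site. In the S1pr1 run the CON points lie mostly above the TM points of the same mouse, whereas in the Kalrn run they lie mostly below them in mouse 1 and mostly above them in mouse 2.

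The level of a site in the other mouse was used to group distal sites without the rates under comparison, a grouping chosen after the data were seen. Distal sites with a mean rate below 0.2 in mouse 2 had a CON minus TM difference of 0.00897 in mouse 1 (173 sites, 89 lower and 84 higher in TM). Those below 0.2 in mouse 1 had 0.0145 in mouse 2 (191 sites, 89 lower and 101 higher in TM). Low-rate distal sites were thus split about evenly in direction in each mouse. For 3′ UTR sites outside repeats of the same low rate the differences were 0.0241 (161 sites, 115 lower and 43 higher) and 0.0343 (168 sites, 122 lower and 46 higher). Distal sites at 0.4 to 0.6 in the other mouse had -0.0331 in mouse 1 (166 sites) and 0.0182 in mouse 2 (162 sites), of opposite sign.

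The comparison of the bases next to the altered A was void, because the reference held the sequence of 30.3% of the sites, those in annotated exons or at gene starts, and its shares are not given.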

How the data were processed

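RNA of 4 endothelial cultures was sequenced, 1 CON and 1 TM culture from each of 2 mice. Per the labels, the authors used Trimmomatic 0.38, STAR 2.6.1a and HTSeq 0.11.2 on mm10, and sites were called by BCFtools mpileup. For each library the deposited site table holds counts of reference and of altered reads, and the authors' rate, a fraction that is 0 for a site unlisted in that library. The rates here were computed from those counts, and the rate columns were not used. Its library names were matched to the samples by the study's own site list. The deposited gene counts served for depth, markers and Adar; 99.1% to 99.2% of reads fell in rows that name no gene and were left out of gene counts. The stated 5 and 3 read limits, the rate limits and the 0.05 difference follow the study.

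Members, gene lists and alternatives were chosen with earlier results of these data known. Per-site reads were compared by two-sided Fisher's exact tests in each mouse over all sites with 5 or more reads in both libraries and 3 or more altered reads, with Benjamini-Hochberg adjustment at 0.05, and mean rates by exact sign permutation over the mice. The study paired the cultures by mouse, so an exact Cochran-Mantel-Haenszel test with the mouse as block was the paired alternative. Intervals are Wilson 95% intervals. The tests were tested on simulated data. Sites were named by this rule: the 5 largest falls and 3 largest rises per class among sites with 10 or more reads in all libraries (a gene at most 2 times), sites called in both mice, the 3 longest runs, the 5 genes with most sites, and members near listed interferon-stimulated genes. The sites called in mouse 2 alone or by the block test, and others so marked, were added after their values were seen. Python 3.11.15 with numpy 2.4.6, pandas 2.3.3 and scipy 1.17.1 was used, with GENCODE M21 for gene positions.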

Additional observations from a re-analysis of the deposited data

How the results depend on the processing

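Stricter limits left fewer sites: 145 downstream at a depth minimum of 10 reads, 86 downstream and 1032 distal at 20 reads, and 141 and 1360 with 5 altered reads. Sites that were CON > TM in both mice then numbered 6 downstream and 55 distal at a depth of 10, 4 and 31 at 20, 6 and 46 with 5 altered reads, and 7 and 48 at a rate difference of 0.10. CON < TM in both mice numbered 2 downstream and 55 distal at 20, 3 downstream with 5 altered reads, and 89 distal at a difference of 0.10. With both libraries required to list the site these were 7 downstream CON > TM, and 2 downstream and 68 distal CON < TM. The share of distal CON > TM calls repeated in the other mouse was then 23.9% from mouse 1 to 2, and at a difference of 0.10 it was 14.2% and 15.7% for the 2 directions. The mean CON minus TM rate of distal sites was -0.0266 with unlisted sites given a rate of 0 and -0.0217 weighted by reads, negative in both mice under either, and the downstream minus distal difference was 0.0622 weighted by reads. Leaving out each mouse gave -0.0123 to 0.0532 for downstream sites, -0.00599 to 0.00731 for distal sites and -0.00635 to 0.0459 for their difference. The read test of the paired mice, with the replicate block, called 5 sites lower and 1 higher in TM, and without the block, on added reads, 4 and 2, against 0 and 0 in mouse 1 and 3 and 0 in mouse 2. A depth minimum of 10 gave 2 sites higher in TM in mouse 1, as did leaving out sites with no reference read, an alternative chosen after seeing the data; unadjusted p gave 31 and 18 in mouse 1 and 41 and 20 in mouse 2. The share of sites with a neighbour was 14.9% downstream and 16.1% distal within 20 bases, 33.2% and 32.8% within 100 bases, 27.1% distal at a depth of 20, 17% downstream with 5 altered reads, and 19.3% distal without the 6 genes with the most sites, also chosen after seeing the data. The cause of these changes was not tested, beyond the fewer sites that a stricter limit leaves. Of 134 alternative values of the 19 main results, 88 stayed near the main value. That meant within the spread of the mice for means, within the counting interval for shares and within a fixed fold change for counts. Leaving out 1 of the 2 mice could not move a mean beyond that spread. Neighbouring bases were not computed under any alternative, since the sequence covered too few sites. At median depths of 14 to 18 reads, differences of a few hundredths in the rate of 1 site were not detectable.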
